A study of Homo sapiens with 15 samples.

Results

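Expression of 9 genes that the transcription factor p53 is known to activate was followed in BEAS-2B, an immortalized line of human bronchial epithelium, exposed to fine particulate matter (PM2.5). The genes were chosen by name, with earlier results of these data known: CDKN1A, MDM2, GDF15, TP53I3, SESN1, ZMAT3, BTG2, PLK3 and RRM2B. All 9 were found among the 58219 genes of the count table, and all 9 passed the filter on low counts that left 17599 genes to test. As background, p53 is kept low by the ubiquitin ligase MDM2, and DNA damage and other stresses release it. It then binds paired response elements near its target genes, which stop the cell cycle, help repair, buffer oxidants or promote death, and because MDM2 is itself a target the response limits itself. BEAS-2B cells carry the large T antigen of SV40, a viral protein known to bind both p53 and the retinoblastoma proteins, which limits the line as a model of p53 signalling in normal airway cells.

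The question was how dose and duration of exposure to an aqueous extract of PM2.5 collected in Beijing change expression in one cell type. RNA was sequenced from 15 libraries in 5 groups of 3 independent experiments. The 24-h protocol had a vehicle control, 1 µg/cm2 and 30 µg/cm2 of PM2.5, each for 24 h. The repeated protocol had its own vehicle control and 1 µg/cm2 of PM2.5 given each day, with washing between doses, for which the methods state 6 exposures and a harvest on day 7 while the labels state 7 days of treatment. All groups were BEAS-2B cells in serum-free bronchial epithelial medium on collagen, with no genetic change between groups. The repeated protocol began from a lower plating density, so time, density and daily medium change cannot be told apart when both controls are compared.

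Libraries held 21460981 to 34724765 counted reads. Replicate pairs of every group differed by more than sampling noise, with a chi-square per degree of freedom of at least 4.32. The 24-h libraries of experiment 2 stood apart from those of experiments 1 and 3 in all 3 groups, at 76.6 to 181 against 4.44 to 18.1 between experiments 1 and 3, so results that rest on them are given with and without that experiment. In the repeated protocol, the daily library of experiment 3 stood at 19.7 to 25.5 from the other two, which differed by 4.69. The cells held the 8 epithelial markers that were looked for, whereas the leukocyte genes PTPRC and LYZ had at most 2 counts and CD3E at most 8 counts in any library. CD14, the 1 leukocyte marker that passed the filter, had 2.30 to 23.5 CPM, the normalized read count scaled to library size by the trimmed mean of M-values (TMM). The 3 endothelial markers together reached at most 0.345 CPM. After 30 µg/cm2, 5 of the 8 epithelial markers were called lower than in the control, against 4.24% of all genes tested. The summed level of the 8 was 1748 to 2872 CPM against 3950 to 4390 CPM. After daily exposure 1 of the 8, KRT5, was called lower, against 22 of all 17599 genes tested. With the experiment number as a block it was 3 of the 8, against 2.79% of all genes. The sum after daily exposure was 2504 to 2712 CPM against 3483 to 4226 CPM. The part of these markers in the results below was not tested.

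Sequences that match the p53 response element were looked for near the genes to show what kind of site p53 binds. The element was searched on GRCh38 as 2 adjoining decamers with no spacer, each of 3 purines, a core of C, 2 bases that are A or T, and G, and 3 pyrimidines, with at most 2 mismatches outside the cores, on both strands and within 2500 bases of the 5′ end of the gene. The 5′ end is the outermost one annotated for the gene. Of the 8 genes searched, 3 had a match, and 419 of the 17599 genes tested (2.38%) had one. Pairs with a changed base in a core were not counted, so the absence of a match does not show that a gene lacks an element. For GDF15 and SESN1, which had no match, the window leaves out RefSeq promoters further along the gene. Those were not searched for paired decamers. Core bases are in capitals, and each match is written on the strand of its gene. The CDKN1A match, at chr6:36676449-36676468, lies at the outermost annotated 5′ end of the gene and overlaps an exon. It lies upstream of the RefSeq promoter of CDKN1A, at chr6:36678464-36678763. The ZMAT3 match, at chr3:179070188-179070207 on the minus-strand gene, is intronic and has 0 mismatches. The BTG2 match, at chr1:203303642-203303661, is centred at -1840 bases from the start of the gene, in an exon of BTG2-DT on the other strand.
CDKN1A: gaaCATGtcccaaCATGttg
ZMAT3: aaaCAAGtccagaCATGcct
BTG2: acgCATGttcaggCATGcat

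RefSeq promoters (GRCh38.p14, 250 bases before to 50 after a transcript start) were searched for single decamers with at most 1 mismatch, which are common: 32.6% of 35116 promoters held one. Of 14 promoters of 8 of the genes, 7 did, but several windows overlap, and by gene it was 3 of 8 (MDM2, GDF15 and SESN1) against 37.3% of all genes in the table. The internal promoter of MDM2, on chromosome 12 from 68808767 to 68809066 (plus strand), is printed because it held 2 such decamers, at bases 157 and 205, and the promoter of GDF15, on chromosome 19 from 18385908 to 18386207 (plus strand), because GDF15 is the gene with the largest fold-changes below. It held 1, at base 279. The decamers are in capitals. Decamers with a changed core that adjoin the marked ones were not searched for, so a marked decamer can be part of a pair. A match describes these letters and is no measurement of binding.
MDM2: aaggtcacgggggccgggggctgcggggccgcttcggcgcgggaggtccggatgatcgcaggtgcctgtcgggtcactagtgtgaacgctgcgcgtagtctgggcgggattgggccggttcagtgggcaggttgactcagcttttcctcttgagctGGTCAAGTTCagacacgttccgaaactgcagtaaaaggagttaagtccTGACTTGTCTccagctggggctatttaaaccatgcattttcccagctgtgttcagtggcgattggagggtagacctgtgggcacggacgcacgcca
GDF15: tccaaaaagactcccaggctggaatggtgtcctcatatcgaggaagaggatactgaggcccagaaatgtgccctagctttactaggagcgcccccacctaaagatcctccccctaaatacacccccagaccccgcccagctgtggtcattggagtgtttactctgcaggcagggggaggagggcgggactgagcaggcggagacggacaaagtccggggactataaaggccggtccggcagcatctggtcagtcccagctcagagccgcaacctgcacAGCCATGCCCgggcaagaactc

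In untreated cells of the 24-h protocol the 9 genes covered a wide range of levels. Scaled by exon length, as RPKM (CPM per kilobase of exon), CDKN1A was the most abundant at 68.7 ± 18.8 (SD, n = 3), followed by TP53I3 at 28.0 ± 8.50, BTG2 at 15.3 ± 2.68 and RRM2B at 11.9 ± 0.950. MDM2 at 9.82 ± 0.778 RPKM and GDF15 at 9.65 ± 3.36 RPKM did not differ beyond their spread. The exon length used covers all annotated exons of a gene, 13269 bases for MDM2 and 2087 bases for GDF15. Without this scaling MDM2 stood at 130 CPM and GDF15 at 20.1 CPM, so the order depends on the length. The lowest levels were those of SESN1 at 4.63 ± 0.393, ZMAT3 at 4.25 ± 0.501 and PLK3 at 3.46 ± 1.27 RPKM, and neighbours in this order did not differ beyond their spread. After 30 µg/cm2, GDF15 stood second at 130 ± 56.4 RPKM, behind CDKN1A at 209 ± 46.2 RPKM and ahead of TP53I3 at 43.9 ± 2.72 RPKM. BTG2, RRM2B and MDM2 then lay within their spread of each other, at 18.8 ± 3.62, 18.4 ± 5.19 and 17.5 ± 3.70 RPKM.

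**Figure D1:**
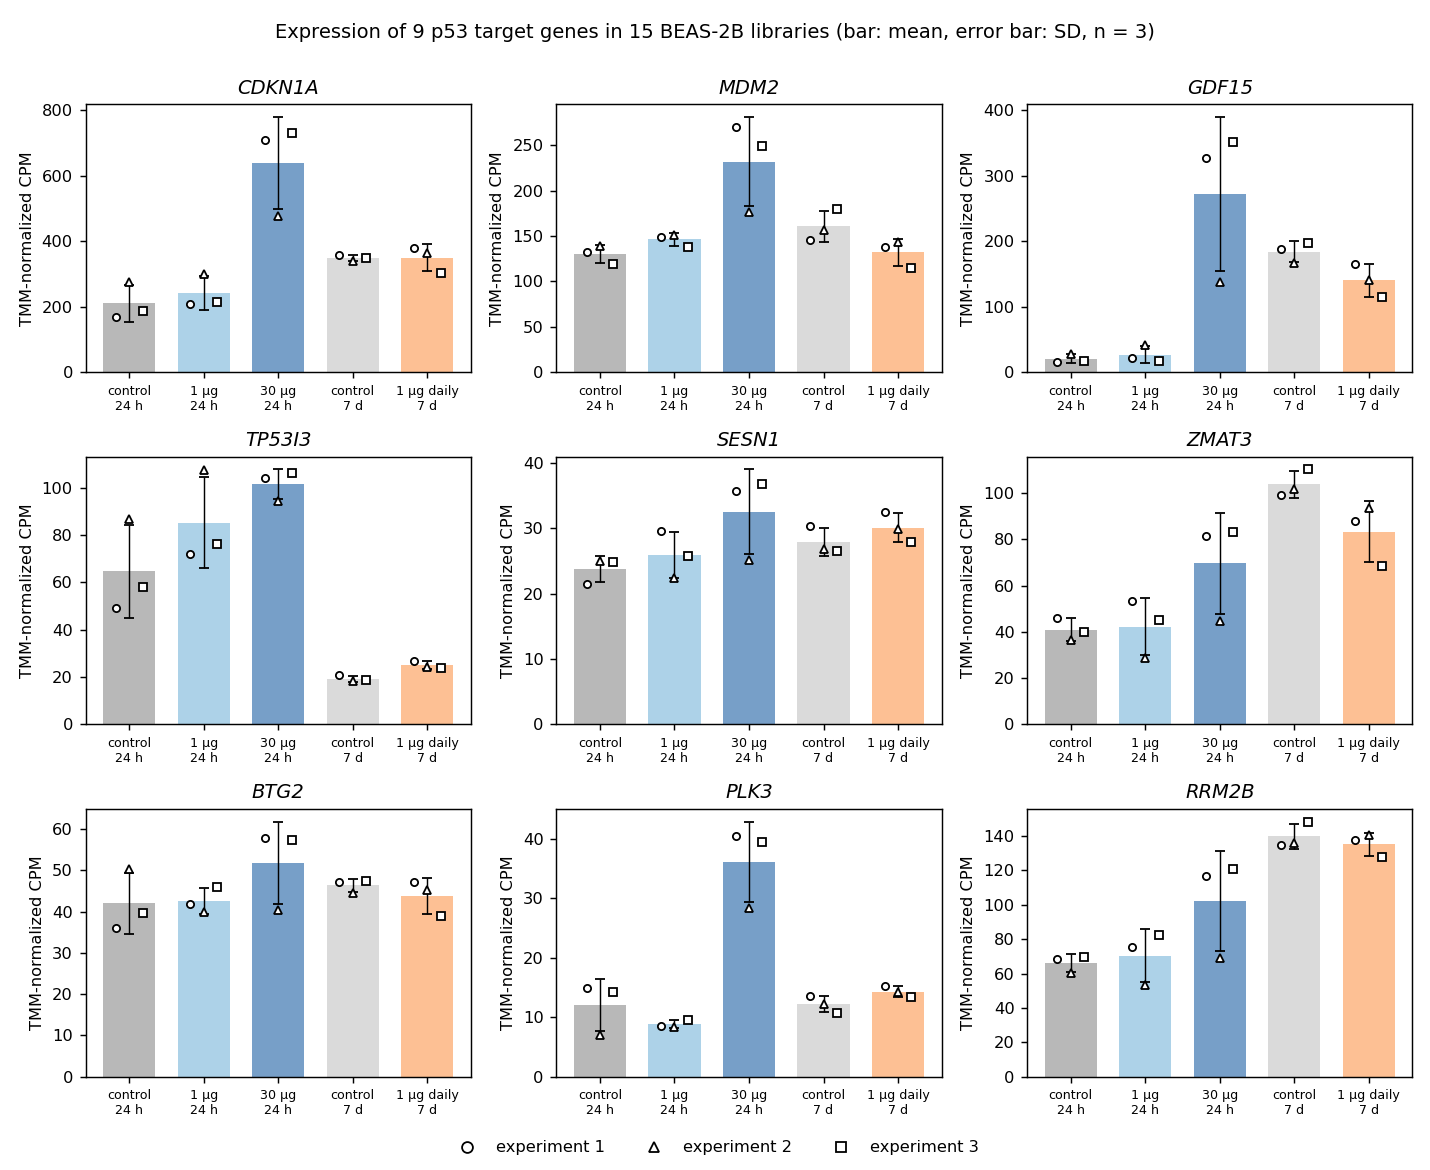
Levels of the 9 genes in TMM-normalized CPM (vertical axes, starting at 0) in the 5 groups, with bars at the mean, error bars of 1 SD (n = 3) and 1 symbol per experiment. After 30 µg/cm2 the triangle of experiment 2 is the lowest point for every gene, and the TP53I3 bars of the repeated protocol are the lowest of that gene.

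After 24 h with 30 µg/cm2 of PM2.5, 5 of the 9 genes rose and none fell. GDF15 rose 13.5-fold, CDKN1A 3.04-fold, PLK3 2.99-fold, MDM2 1.78-fold and TP53I3 1.57-fold. ZMAT3, RRM2B, SESN1 and BTG2 had fold-changes above 1 that did not pass the test. A gene was called if its Benjamini-Hochberg adjusted p was under 0.05 in edgeR's quasi-likelihood test and its log2 fold-change was 0.6 or more in either direction, and 3.82% of all genes tested were called higher. The median log2 fold-change was 0.77 over the 9 genes and 0.03 over all genes tested. The replicates are 3 independent experiments, and in bulk RNA a change in how many cells express a gene cannot be told apart from a change in its level per cell.

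MDM2 (chr12:68808176-68850686, plus strand), which encodes the ligase that restrains p53, stood at 133, 139 and 119 CPM in control experiments 1, 2 and 3, and at 270.3, 177 and 249 CPM after 30 µg/cm2. The groups did not overlap, and experiment 2 was the lowest of the treated libraries. On the log2 scale this was a rise of 0.83 (SE 0.15, adjusted p = 0.0036, edgeR). The exons of MDM2 overlap those of CPM on the other strand, and whether counting used the strand was not given in the sources used here. The fold-change kept its call without any 1 library.

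Among the genes that halt the cell cycle, CDKN1A (chr6:36676460-36687339, plus strand), the cyclin-dependent kinase inhibitor p21, had 168, 275 and 186 CPM in the control and 709, 476 and 729.5 CPM after 30 µg/cm2. The groups did not overlap, although experiment 2 had the highest control and the lowest treated level. CDKN1A rose by 1.61 on the log2 scale (SE 0.21, adjusted p = 0.00035, edgeR). PLK3 (chr1:44800225-44805990, plus strand), a stress-activated polo-like kinase whose exons overlap DYNLT4 on the other strand, had 14.9, 6.97 and 14.2 CPM in the control and 40.6, 28.4 and 39.5 CPM after treatment. Its groups did not overlap either, and PLK3 rose by 1.58 (SE 0.24, adjusted p = 0.00077). BTG2 (chr1:203305491-203309602, plus strand), an antiproliferative gene, had 36.1, 50.3 and 39.8 CPM against 57.8, 40.3 and 57.4 CPM. These groups overlapped, since experiment 2 was the highest control and the lowest treated library, and the log2 fold-change of 0.30 (95% interval -0.04 to 0.64, adjusted p = 0.27) did not pass.

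GDF15 (chr19:18374731-18389176, plus strand), a secreted stress cytokine of the TGF-beta family, had 15.5, 28.2 and 16.7 CPM in the control and 327, 137 and 352 CPM after 30 µg/cm2. The lowest treated library was still several times the highest control library. GDF15 rose by 3.76 on the log2 scale (SE 0.40, adjusted p = 7e-05, edgeR), the largest of the 9 genes.

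Of the genes that act on redox balance and metabolism, TP53I3 (chr2:24077433-24085861, minus strand), a quinone oxidoreductase also called PIG3, had 49.3, 86.9 and 58.2 CPM in the control and 104, 94.4 and 106 CPM after treatment. The groups did not overlap, but the control libraries spread more widely than the treated ones. The rise of 0.65 (SE 0.19, adjusted p = 0.046, edgeR) lay just inside the threshold. The call was lost when any of control experiment 1, control experiment 3, treated experiment 1 or treated experiment 3 was left out, at log2 fold-changes of 0.47 to 0.62. The exons of TP53I3 overlap FAM228B on the other strand. SESN1 (chr6:108986437-109094819, minus strand), a sestrin that restrains mTORC1 signalling, had 21.4, 25 and 24.8 CPM against 35.7, 25.1 and 36.8 CPM, with no overlap but almost no gap in experiment 2. For SESN1 the fitted log2 fold-change was 0.46 (SE 0.15, adjusted p = 0.080).

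ZMAT3 (chr3:179017223-179072279, minus strand), an RNA-binding zinc finger protein that shapes splicing, had 46.2, 36.7 and 40.1 CPM in the control and 81.5, 44.6 and 83.2 CPM after 30 µg/cm2. Treated experiment 2 lay below control experiment 1, so the groups overlapped, and the fitted log2 fold-change of 0.77 (SE 0.24, adjusted p = 0.063, edgeR) did not pass. RRM2B (chr8:102204502-102239118, minus strand), the p53-inducible ribonucleotide reductase subunit that supplies nucleotides for repair, had 68.5, 60.0 and 69.7 CPM against 117, 69.0 and 121 CPM, with treated experiment 2 within the control range. For RRM2B the fitted log2 fold-change was 0.63 (SE 0.20, adjusted p = 0.059).

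Over the 9 genes, all 3 treated libraries lay above all 3 control libraries for CDKN1A, MDM2, GDF15, TP53I3, SESN1 and PLK3. The same was true of 11.7% of all genes tested. Within each experiment, the treated library was compared with the control of the same number, which the series record gives as the experimental batch. The median log2 ratio of the 9 genes was 1.03 in experiment 1, 0.28 in experiment 2 and 1.05 in experiment 3. For 8 of the 9 genes the ratio was smallest in experiment 2, and the other, PLK3, had its largest ratio there (2.03 against 1.44 and 1.47). The only ratio below 0 was that of BTG2 in experiment 2 (-0.32). Over all genes tested the median absolute log2 ratio at 30 µg/cm2 was 0.280 in experiment 1, 0.276 in experiment 2 and 0.322 in experiment 3.

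**Figure D2:**
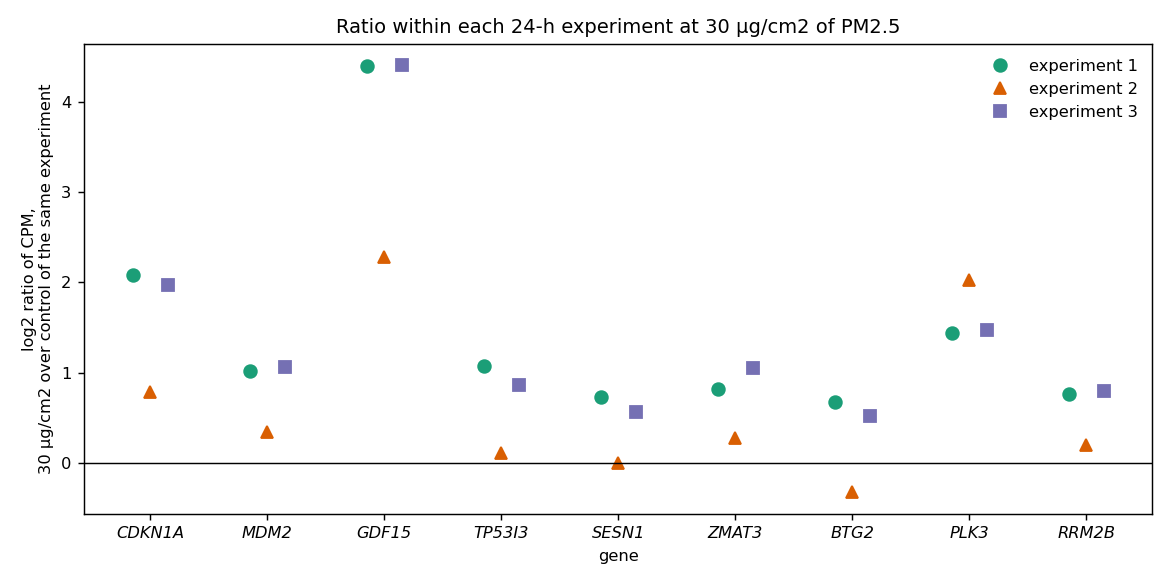
Log2 ratio of CPM at 30 µg/cm2 over the control of the same experiment (vertical axis) for each of the 9 genes, with 1 symbol per experiment and no error bar. Experiment 2 is the lowest symbol for 8 genes and the highest for PLK3, and BTG2 in experiment 2 is the only value below 0.

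When the experiment number entered the fit as a replicate block, 6 of the 9 genes were called higher, against 7.36% of all genes. ZMAT3 passed in that fit with a log2 fold-change of 0.72. Without the libraries of 24-h experiment 2, 8 of the 9 genes were called higher, against 9.16% of all genes. Only BTG2 remained below the threshold, at a log2 fold-change of 0.59, whereas SESN1 reached 0.64, RRM2B 0.77 and ZMAT3 0.92. Leaving out the single treated library of experiment 2 was enough for the calls of SESN1, RRM2B and ZMAT3, at 0.61, 0.84 and 1.00.

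At 1 µg/cm2 for 24 h, none of the 9 genes was called by edgeR, none had an unadjusted p under 0.05 and none was called by DESeq2. Of all genes tested, 0.0625% were called in either direction. This comparison uses the same control libraries as the one at 30 µg/cm2. The log2 fold-changes ran from -0.46 for PLK3 to 0.40 for GDF15, with a median of 0.13. CDKN1A had 209, 301 and 215 CPM in experiments 1, 2 and 3, each a little above its own control, and the log2 fold-change of 0.21 had a 95% interval of -0.25 to 0.66. MDM2 had 149, 151 and 138 CPM, a log2 fold-change of 0.17 with an interval of -0.16 to 0.50. TP53I3 had 72.1, 107 and 76.2 CPM and was likewise above its own control in each experiment, with a log2 fold-change of 0.40 and an interval of -0.01 to 0.81. These intervals exclude a change of the size seen at 30 µg/cm2 for CDKN1A and MDM2, but not for TP53I3. GDF15 had 21.3, 41.3 and 17.3 CPM, with experiment 2 again the highest, as in the control. PLK3 had 8.60, 8.28 and 9.55 CPM, below control experiments 1 and 3 and above control experiment 2. Without the libraries of experiment 2 its log2 fold-change of -0.68 was called lower, the only one of the 9 to be called at this dose, where 0.997% of all genes were called lower. In that fit TP53I3 had a log2 fold-change of 0.48 (adjusted p = 0.0077, edgeR), short of the fold threshold. Over the alternative fits, by edgeR or DESeq2, the smallest adjusted p was 4.5e-05 for TP53I3 and 6.6e-05 for PLK3. It was 0.011 for CDKN1A, 0.040 for SESN1 and above 0.05 for the rest. The log2 fold-change of TP53I3 reached 0.68 with 1 library left out, without a call.

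The doses were also compared directly. From 1 to 30 µg/cm2, 4 of the 9 genes were higher, against 3.62% of all genes tested. GDF15 differed by 3.35 (SE 0.39, adjusted p = 0.00023, edgeR), PLK3 by 2.04 (SE 0.24, adjusted p = 0.00025), CDKN1A by 1.40 (SE 0.21, adjusted p = 0.0012) and MDM2 by 0.66 (SE 0.15, adjusted p = 0.014) on the log2 scale. All 9 pairs of libraries were higher at the larger dose for each of these 4 genes, and the share of all genes with such a separation was not counted. MDM2 lost its call when the library of experiment 1 or of experiment 3 was left out of either dose, at log2 fold-changes of 0.52 to 0.65. TP53I3, called against the control, differed by 0.25 between doses (95% interval -0.16 to 0.66, adjusted p = 0.46), and in experiment 2 it was lower at 30 than at 1 µg/cm2. ZMAT3 differed by 0.72 (adjusted p = 0.078) and was called with the replicate block, at 0.71.

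After daily exposure to 1 µg/cm2 in the repeated protocol, none of the 9 genes was called by edgeR, none had an unadjusted p under 0.05 and none was called by DESeq2. Over all genes tested 0.227% were called in either direction. The median log2 fold-change of the 9 genes was -0.05. CDKN1A had 357, 340.5 and 348 CPM in the control and 380.4, 364.5 and 304 CPM after daily PM2.5, with a log2 fold-change of 0.00 (95% interval -0.45 to 0.45). MDM2 had 146, 157 and 180 CPM in the control and 138, 143 and 115 CPM after treatment. Every treated library of MDM2 was below every control library, and the log2 fold-change was -0.29 (interval -0.61 to 0.04, adjusted p = 0.50). GDF15 was likewise lower in every treated library, at 165.6, 141 and 115 CPM against 188, 166.2 and 197 CPM, with a log2 fold-change of -0.39 (interval -1.16 to 0.38, adjusted p = 0.72). ZMAT3 also lay lower in all treated libraries, from 68.5 to 93.6 CPM against 99.3 to 110.3 CPM, with a log2 fold-change of -0.32 (adjusted p = 0.66). TP53I3 was the reverse, at 26.8, 24.4 and 24.0 CPM against 20.7, 18.2 and 18.9 CPM, with no overlap and a log2 fold-change of 0.38 (interval -0.03 to 0.80, adjusted p = 0.47). Experiment 3 was the lowest treated library for all of these genes, and none of the 9 was called without it. For the other 4 genes, BTG2, PLK3, RRM2B and SESN1, groups overlapped and log2 fold-changes lay between -0.08 and 0.23. How many of all genes tested have groups that do not overlap in this comparison was not counted. The separations given above therefore stand without a background share. The count of all genes called depended on the fit, at 40 in the main fit, 773 with the replicate block and 1029 with only the groups compared. Over the alternative fits, by edgeR or DESeq2, the smallest adjusted p was 0.0055 for TP53I3, 0.029 for GDF15 and 0.045 for ZMAT3. For the rest of the 9 genes it stayed above 0.05. No log2 fold-change of the 9 genes reached 0.6 in either direction in those fits, so none was called.

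**Figure D3:**
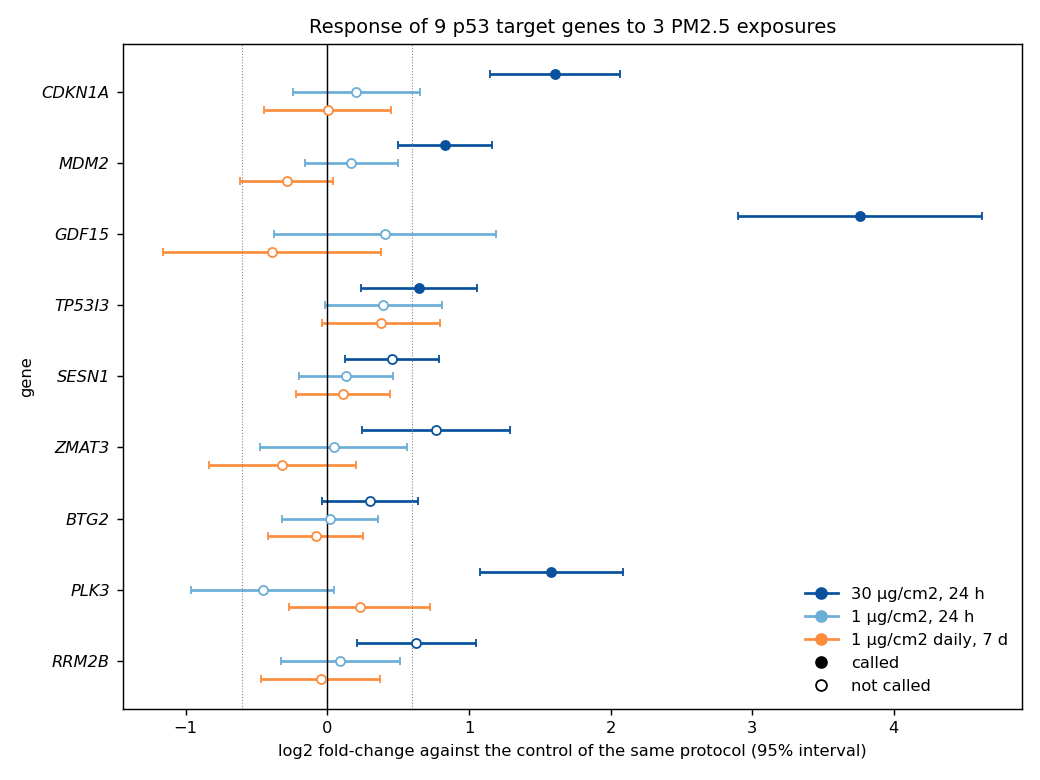
Log2 fold-change (horizontal axis, with 95% intervals from edgeR) of the 9 genes for 30 µg/cm2 and 1 µg/cm2 over 24 h and for 1 µg/cm2 daily over 7 d, each against the control of its protocol, with filled points for called genes and dotted lines at 0.6 and -0.6. Filled points appear at 30 µg/cm2 only, for GDF15, CDKN1A, PLK3, MDM2 and TP53I3.

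Whether the response to daily exposure differed from that to 30 µg/cm2 was tested as an interaction. It was lower for 3 of the 9 genes, against 0.977% of all genes tested. The difference in log2 fold-change was -4.15 for GDF15 (SE 0.53, adjusted p = 0.0019, edgeR), -1.60 for CDKN1A (SE 0.30, adjusted p = 0.015) and -1.12 for MDM2 (SE 0.22, adjusted p = 0.018). GDF15 kept its call without any 1 library. CDKN1A lost its call in 4 of 12 cases, without 24-h control experiment 3, 30 µg/cm2 experiment 1 or 3, or daily experiment 3, at -1.511 to -1.496. MDM2 lost its call in 7 of 12, without 24-h control experiment 1 or 3, 7-d control experiment 2 or 3, 30 µg/cm2 experiment 1 or 3, or daily experiment 3, at -1.14 to -0.97. With the replicate block, 6 of the 9 genes were called lower, against 7.82% of all genes, the additional ones being PLK3 at -1.38, ZMAT3 at -1.05 and RRM2B at -0.64. Without 24-h experiment 2 there were 7, with BTG2 at -0.67 in addition, against 10.6% of all genes. Between daily exposure and the single exposure to the same 1 µg/cm2, the response differed for none of the 9 genes in edgeR or DESeq2, and none had an unadjusted p under 0.05. Of all 17599 genes tested edgeR called 0%, but 181 with the replicate block, and DESeq2 called 75. Without 24-h experiment 2, GDF15 (-0.66) and PLK3 (0.91) were called, against 9.84% of all genes in either direction.

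The responses of both protocols started from different levels. In the 7-d controls, 4 of the 9 genes were higher than in the 24-h controls and 1 was lower, against 21.9% of all genes called in either direction. GDF15 was 9.16-fold higher in the 7-d control, where its 166 to 197 CPM exceeded even the 137 CPM of 30 µg/cm2 experiment 2 (log2 fold-change 3.20, SE 0.39, adjusted p = 7.6e-05, edgeR). ZMAT3 was 2.53-fold higher, with 99.3 to 110.3 CPM in the 7-d control above its highest level after 30 µg/cm2, 83.2 CPM (log2 fold-change 1.34, SE 0.25, adjusted p = 0.0013). RRM2B was 2.11-fold higher, at 135 to 148 CPM, also above the highest library of 30 µg/cm2 at 121 CPM (log2 fold-change 1.08, SE 0.20, adjusted p = 0.0013). CDKN1A was 1.66-fold higher (log2 fold-change 0.73, SE 0.21, adjusted p = 0.019). That call was lost without 24-h control experiment 1 or 3 or 7-d control experiment 1, at 0.56 to 0.72.

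TP53I3 went the other way. Its 18.2 to 20.7 CPM in the 7-d control lay below the 49.3 to 86.9 CPM of the 24-h control in all 9 pairs of libraries, a 3.36-fold lower level (log2 fold-change -1.75, SE 0.20, adjusted p = 4.3e-05, edgeR). MDM2 differed by 0.30 (95% interval -0.02 to 0.63, adjusted p = 0.15), SESN1 by 0.23, BTG2 by 0.14 and PLK3 by 0.01 on the log2 scale, and none of these passed. The 5 called genes were the same in DESeq2 and without 24-h experiment 2.

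Other p53 targets were examined from lists of 47 genes sorted by role, of which 44 passed the filter on low counts. After 30 µg/cm2, 6 of the 44 were higher and 1 was lower, against 3.82% and 4.24% of all genes tested. The median log2 fold-change was 0.29 against 0.03 over all genes. Of the 15 cell-death genes tested, 4 rose. These were the receptor gene EDA2R (1.65), the TRAIL receptor gene TNFRSF10B (1.14), the nuclease gene AEN (0.82) and the BH3-only gene PMAIP1, also called NOXA (0.78). EDA2R rose from 1.65 to 2.38 CPM in the control to 2.46 to 9.01 CPM, and TNFRSF10B from 156 to 184 CPM to 219.9 to 471 CPM, with no overlap for either. Of 5 arrest genes, GADD45A, which is also induced by other stresses, rose by 1.39 and PLK2 was lower, at -0.62. The 9 feedback and other targets held 1 that rose, TRIM22 at 0.70. None of 5 DNA repair genes and none of 10 metabolic genes were called by edgeR, with 1 and 5 of them at an unadjusted p under 0.05 and 0 and 1 called by DESeq2. Of all 17599 genes tested, 4161 had such a p at this dose and DESeq2 called 1829. Single libraries decided 4 of the edgeR calls among the other targets. EDA2R lost its call in 5 of 6 cases, without any control library or without treated experiment 1 or 3, at 1.36 to 1.72. PMAIP1 lost it without control experiment 1 or treated experiment 1 or 3, at 0.674 to 0.706, PLK2 without treated experiment 2, at -0.517, and TRIM22 without control experiment 3, at 0.585. With the replicate block, 12 of the 44 were higher and 2 lower, against 1296 (7.36%) and 1385 of all 17599 genes. Without 24-h experiment 2, 14 were higher and 0 lower, against 1644 (9.16%) and 1786 of all 17950 genes.

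From 1 to 30 µg/cm2, 7 of the 44 other targets were higher and 0 lower, against 637 (3.62%) and 742 of the 17599 genes tested. Beside EDA2R, TNFRSF10B, AEN, PMAIP1 and GADD45A, with log2 fold-changes of 0.78 to 1.42, these were IER5 (0.74) and FBXO22 (0.63). EDA2R lost its call without any library but 30 µg/cm2 experiment 2, at 1.13 to 1.63, PMAIP1 without 1 µg/cm2 experiment 1 or 30 µg/cm2 experiment 1 or 3, at 0.665 to 0.678, and FBXO22 without 1 µg/cm2 experiment 2 or 30 µg/cm2 experiment 1, at 0.537 to 0.541. At 1 µg/cm2 for 24 h none of the 44 was called by edgeR or DESeq2 and none had an unadjusted p under 0.05. After daily exposure none was called by edgeR, 8 had an unadjusted p under 0.05 and 1 was called by DESeq2. Of all 17599 genes tested, 2102 had such a p and DESeq2 called 250. With the replicate block 1 was called lower, the cyclin G2 gene CCNG2 (-0.73), against 2.79% of all genes. The response to daily exposure was lower than that to 30 µg/cm2 for 2 of the 44, against 0.977% of all genes tested. These were GADD45A (-1.26) and TRIM22 (-0.92), calls that did not survive 11 and 10 of the 12 omissions of 1 library, at -1.40 to -1.08 and -0.976 to -0.800. GADD45A kept its call without 30 µg/cm2 experiment 2 only, and TRIM22 without that library or 24-h control experiment 2. Between the controls 9 of the 44 were called, against 21.9% of all genes tested. In the 7-d controls, TRIM22 (1.73), SPATA18 (1.42), PERP (1.24), DDB2 (0.71) and PMAIP1 (0.65) were higher than in the 24-h controls, and PLK2 (-2.03), SFN (-0.78), FUCA1 (-0.70) and DDIT4 (-0.67) were lower. DDB2 was lost without 24-h control experiment 1 or 3 or 7-d control experiment 2 or 3, at 0.543 to 0.714, and PMAIP1 without experiment 1 or 3 of either control, at 0.556 to 0.670. FUCA1 was lost without 24-h control experiment 2 or 7-d control experiment 1 or 3, at -0.711 to -0.459.

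Few genes that act upstream of the targets were called. Of 13 regulators of p53, 1 was called after 30 µg/cm2, against 4.24% of all genes tested called lower. It was PPP1R13L, which encodes the p53 inhibitor iASPP, at -0.60, and the median log2 fold-change of the 13 was 0.05. That call was lost without experiment 1 or 3 of either group, at -0.598 to -0.540. MDM4, the partner of MDM2, had a log2 fold-change of 0.35 after 30 µg/cm2 (adjusted p = 0.098, edgeR). TP63, the p53 relative that marks basal cells, was the 1 regulator called after daily exposure, with 29.0 to 31.1 CPM against 55.6 to 65.4 CPM in the 7-d control (log2 fold-change -0.99, SE 0.19, adjusted p = 0.048, edgeR). The groups did not overlap, but the call was lost without any 1 of the 6 libraries, at -1.03 to -0.913. With the replicate block, ATM (-0.61) and HIPK2 (-0.62), genes of kinases that act on p53, were called lower in addition, against 2.79% of all genes. Between the controls 3 of the 13 regulators were called, against 21.9% of all genes tested. TP63 and TP73 were higher in the 7-d than in the 24-h control, by 1.21 and 1.00, and CDKN2A, whose products include the MDM2 inhibitor ARF, was lower, at -0.80. CDKN2A lost its call without 24-h control experiment 3 or 7-d control experiment 2 or 3, at -0.789 to -0.754.

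**Figure D4:**
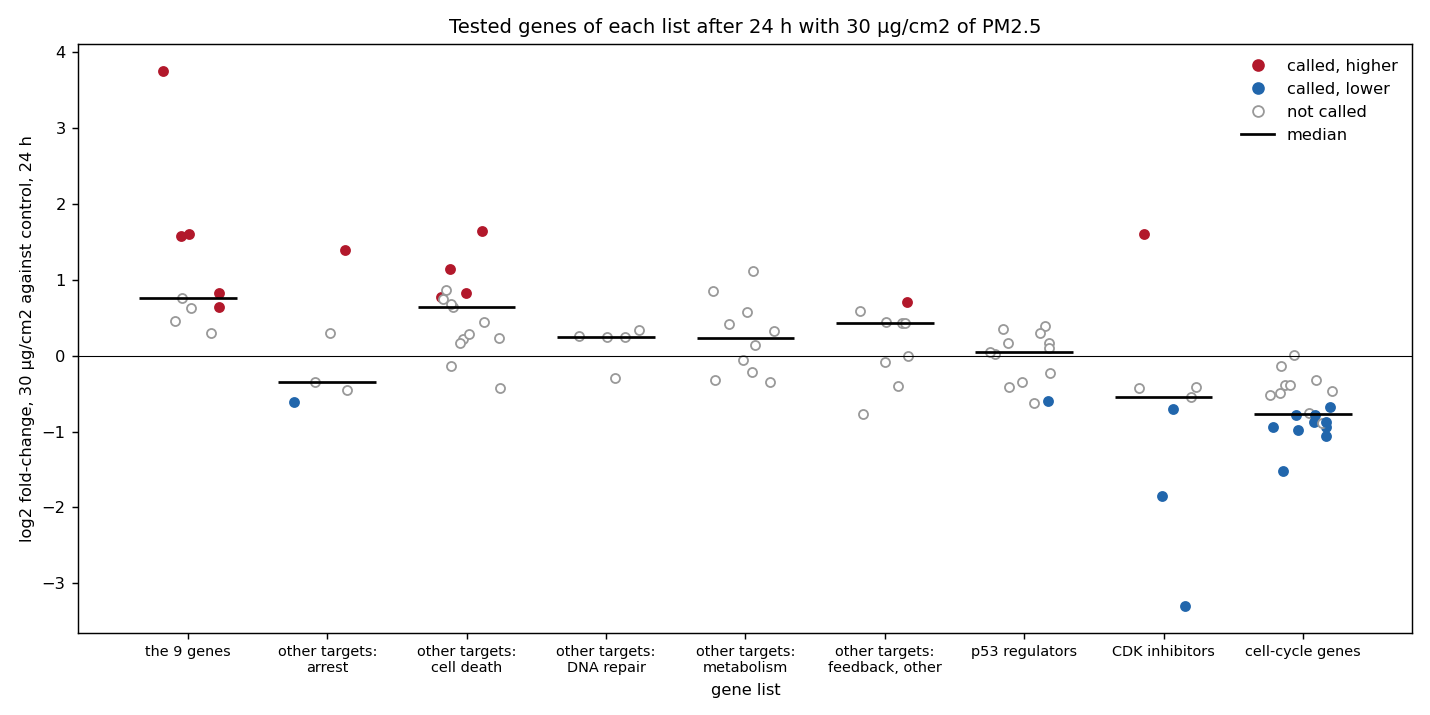
Log2 fold-change after 30 µg/cm2 over 24 h (vertical axis) of each tested gene in 9 lists, with red and blue points for genes called higher and lower, open points for the rest and a line at the median. Of the lists drawn, the 9 genes of interest and the cell-death targets have the highest medians, at 0.77 and 0.64, and the cell-cycle genes the lowest, at -0.76. The ATF4 and immediate early lists, with medians of 1.26 and 1.03, are not drawn.

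Since p21 inhibits cyclin-dependent kinases, the other inhibitors and genes of cell division were set beside it. Of 7 inhibitor genes tested, CDKN1A was the only one that rose after 30 µg/cm2 and 3 fell, against 3.82% and 4.24% of all genes tested. CDKN1C fell by 3.30, with 10 or fewer counts in each treated library, CDKN2C fell by 1.85 and CDKN1B fell by 0.70 on the log2 scale. CDKN2C lost its call without control experiment 2 or treated experiment 1 or 3, at -1.63 to -1.36, and CDKN1B without those or control experiment 3, at -0.787 to -0.445. CDKN2C had 76.3 to 177 CPM in the control and 16.5 to 56.0 CPM after 30 µg/cm2. Of 20 cell-cycle genes that the DREAM complex is known to repress downstream of p21, 10 fell and none rose, against 4.24% of all genes tested that were called lower, and the median log2 fold-change was -0.76. KIF20A, a mitotic kinesin gene, had 350.4 to 426 CPM in the control and 108 to 175 CPM after treatment, and its log2 fold-change was -1.53. CENPF and CCNB1 followed with log2 fold-changes of -1.05 and -0.98, and CCNB1 lost its call without control experiment 2 or treated experiment 1 or 3, at -0.833 to -0.799. None of the 20 was called by edgeR or DESeq2 at 1 µg/cm2 for 24 h or after daily exposure, with 0 and 4 of them at an unadjusted p under 0.05. Of all 17599 genes tested, 534 and 2102 had such a p.

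In the controls, 9 of the 20 cell-cycle genes were lower and 1, E2F1, was higher at 7 d than at 24 h. Of all 17599 genes tested, 1902 were called lower and 1958 higher. RRM2, the ribonucleotide reductase subunit of dividing cells, fell by 1.23 on the log2 scale, while RRM2B, its p53-inducible relative, was higher by 1.08. KIF20A was lower by 1.05 and CCNB1 by 1.20. Of the kinase inhibitors, CDKN2A and CDKN2B were lower, at -0.80 and -0.73, and CDKN1A was higher, at 0.73. E2F1 was lost without experiment 1 or 3 of either control, at 0.714 to 0.916, and CDKN2B without 24-h control experiment 2, at -0.535.

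GDF15 and CDKN1A can also be induced without p53, so stress genes of other pathways were read in the same libraries. Of 10 genes of the ATF4 stress response, 3 rose after 30 µg/cm2, TRIB3 by 2.61, PPP1R15A by 2.44 and ASNS by 1.999, and the median log2 fold-change was 1.26. With the replicate block 8 of the 10 were higher, against 7.36% of all genes. Of 10 immediate early genes, 6 rose, led by EGR1 at 5.09, IER3 at 2.59 and FOSB at 1.70, and DUSP1 fell by 1.07. Without the block, 3.82% of all genes tested were called higher at this dose and 4.24% lower. ASNS was lost without any library but control experiment 2, at 1.61 to 2.05, FOSB without any but treated experiment 2, at 1.41 to 1.73, and IER3 without control experiment 3 or treated experiment 1 or 3, at 2.34 to 2.87. Their part in the changes of the 9 genes was not tested. In the 7-d controls 3 of the 10 ATF4 genes were higher than at 24 h, against 1958 of all 17599 genes tested. These were DDIT3 by 2.45, TRIB3 by 1.59 and PPP1R15A by 1.24, and DDIT3 was lost without 24-h control experiment 3, at 2.10.

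Across all 15 libraries, the pattern of CDKN1A was closest to that of ENTREP1 (Pearson r = 0.957), ULBP2 (0.947), DUSP15 (0.946), TMEM41B (0.945) and SLC7A11 (0.942), on log2(CPM + 0.5). MDM2 was closest to BCAN-AS2 (0.933), FTH1P16 (0.929), TMEM41B (0.926), CAPN5 (0.924) and CYP4F11 (0.919). The likeness of CDKN1A and MDM2 was 0.825. Of the other genes of interest, GDF15 was the most like CDKN1A, at 0.902, and TP53I3 the least, at 0.128. These correlations are over 15 libraries that share groups and experiments, and are given as a description.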

How the data were processed

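Poly(A) RNA of 15 BEAS-2B libraries was sequenced as single-end reads of 50 bases. The authors aligned reads with STAR, counted them per gene with featureCounts and deposited 1 table of raw counts with exon lengths. The methods give GRCh38 and the submitters' processing notes hg19. The coordinates of 57370 of 57392 gene identifiers (99.96%) overlapped the same gene in GENCODE release 44 on GRCh38, which was therefore used. Strand and counting options were not given in the sources used here. Exons of MDM2, TP53I3, SESN1 and PLK3 overlap a gene on the other strand, so their counts are uncertain.

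Counts were scaled by TMM, filtered with filterByExpr and fitted over all 15 libraries, 1 mean per group, with the quasi-likelihood test of edgeR 4.0.16 (earlier mode) in R 4.3.3. P-values were adjusted over all 17599 genes by Benjamini-Hochberg. Called genes had an adjusted p under 0.05 and a log2 fold-change of 0.6 or more in either direction. SEs were derived from each log2 fold-change and its F statistic. CPM are TMM-normalized, and RPKM divide them by the deposited exon length. Depth ranged from 21460981 to 34724765 counts, with a median of 29243177. The fits were tested on simulated data.

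The series record gives the last number of a sample name as the experimental batch, so numbers pair libraries within a protocol, and each fit within a protocol was also run with that number as a block. Deviations from group means correlated at 0.294 to 0.806 between 24-h libraries of the same number and at 0.206 to 0.312 between 7-d libraries. The numbers of both protocols are different experiments, so their controls were not blocked. Alternatives were RLE and upper-quartile scaling, other filters, only the groups compared, DESeq2 1.42.0, edgeR's current mode, no 24-h experiment 2 and each library left out.

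The genes and lists were chosen with earlier results of these data known. Named are all 9 genes and, of each other list, every called gene where 5 or fewer were called and otherwise the 3 largest rises and the 3 largest falls, beside TP63 and MDM4. 1 further gene that this rule covers is not reported here. For CDKN1A and MDM2 the 5 most correlated genes are named. Lists of epithelial, immune, endothelial and fibroblast markers were read as summed CPM. The 4 fibroblast markers summed to 28.1 to 62.1 CPM, and 1 of 5 immune markers, CD14, passed the filter, at 2.30 to 23.5 CPM. Promoter sequences are from RefSeq GRCh38.p14 and response elements from GRCh38.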

Additional observations from a re-analysis of the deposited data

Results flagged for a closer look

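The responses to 30 µg/cm2 for 24 h and to 1 µg/cm2 daily differed by the test of the interaction for 3 of the 9 genes. The difference in log2 fold-change, daily minus 30 µg/cm2, was -4.15 for GDF15, -1.60 for CDKN1A and -1.12 for MDM2. The doses, times and protocols differ together between these arms and cannot be told apart.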

How the results depend on the processing

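Of 2055 recomputed values of single genes, 1787 kept their direction and their side of the threshold, 198 kept the direction but lost the call, 49 gained a call and 21 changed sign, all of them for uncalled values. GDF15, CDKN1A and PLK3 were called at 30 µg/cm2 under all 16 alternatives, MDM2 under 15 and TP53I3 under 8. The cause was not tested unless stated.

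At 30 µg/cm2, 5 of the 9 genes were called. Fitting only the groups compared, with fewer libraries to estimate the spread, gave 3, leaving out 24-h experiment 2 gave 8 with or without the replicate block, and leaving out each library gave 4 to 8. At 1 µg/cm2 the count of 0 became 1 without 24-h experiment 2, with or without the block, and was 0 to 0 with each library left out, as after daily exposure. Between doses, 4 became 2 with only the groups compared and 3 to 6 with each library left out. For the difference between daily exposure and 30 µg/cm2, 3 became 5 with no filter, 6 with the replicate block, 7 without 24-h experiment 2, with or without the block, and 1 to 6 with each library left out. Between daily and single exposure to 1 µg/cm2, 0 became 2 without 24-h experiment 2, with or without the block (GDF15 and PLK3). The controls gave 4 to 5 against 5. The block changed no other call of the 9 genes than those given in the report. The comparison of daily with single exposure and the block without experiment 2 were chosen after seeing the data.

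The values that changed sign were these, none of them called. CDKN1A after daily exposure (0.0036) became -0.0004553 with RLE, -0.0027 with the block and -0.0004554 with DESeq2, and -0.0625 to 0.0936 with each library left out. PLK3 between controls (0.01) became -0.010 with RLE, -0.0027 with only the groups compared, -0.011 with DESeq2, -0.28 without 24-h experiment 2, and -0.28 to 0.17 with each library left out. At 1 µg/cm2, leaving out each library gave -0.0570 to 0.741 for GDF15, -0.134 to 0.262 for ZMAT3, -0.0806 to 0.183 for BTG2 and -0.0400 to 0.2602 for RRM2B.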
